A study of Rattus norvegicus with 6 samples.

Results

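The transcripts of 9 VEGF ligand and receptor genes were measured by RNA-seq in primary rat brain microvascular endothelial cells (rBMECs) given homocysteine (Hcy) or vehicle (Veh). The genes were chosen by name: the ligands Vegfa, Vegfb, Vegfc and Pgf, the receptor tyrosine kinases Flt1, Kdr and Flt4, and the coreceptors Nrp1 and Nrp2. All 9 were among the 33566 genes of the deposited count table, and all 9 passed the filter of 10 counts summed over the libraries, as did 14603 genes in all. The cells came from the cortex of Sprague-Dawley rats aged 18 to 22 days, were isolated with a kit and were used after passaging. The study's methods name the cerebral forebrain as the source. Each group had 3 libraries, collected after 24 h. Veh cells received sterile water and Hcy cells received homocysteine, a sulfur amino acid formed from methionine. The sample labels give 100 µM for Hcy, whereas the protocol text describes a solution of 50 µM, so the dose is not settled here. The labels do not say whether the 3 libraries of a group came from separate isolations, and the p-values below measure only the spread between these libraries. The cells are a culture removed from flow, astrocytes and pericytes.

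VEGF ligands are secreted dimers that bind receptor tyrosine kinases on endothelial cells. VEGF-A binds the products of Flt1 (VEGFR1) and Kdr (VEGFR2). VEGFR2 carries most of the signal for proliferation, migration and permeability, and VEGFR1 binds the ligand tightly with weak kinase activity and also exists as a soluble decoy. Placenta growth factor (Pgf) and VEGF-B bind VEGFR1, VEGF-C binds VEGFR3 (Flt4) and, after processing, VEGFR2, and the neuropilins bind both VEGF and class 3 semaphorins without a kinase of their own. In brain vessels VEGF-A drives sprouting in development and opens the barrier after injury.

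Of the 9 genes, Nrp2 was the single one whose transcript differed between the groups after adjustment over all genes tested. It rose 1.69-fold in Hcy. Kdr, Flt1, Nrp1 and Vegfa had higher estimates in Hcy, Pgf, Vegfc and Vegfb had lower ones, and Flt4 lay near 0, but none of these 8 passed the adjusted test in the main edgeR fit. With an offset for gene length, chosen after the data were seen, Flt1, Kdr and Pgf also passed. In that fit 647 of all genes passed (4.43%). Without Hcy replicate 1, or without Hcy replicate 2, 0 of the 9 passed. Differences are given as log2 fold changes of Hcy over Veh with their standard errors, from edgeR's quasi-likelihood test. Levels of a gene are given as CPM, counts scaled to a common library total, and levels of different genes are compared as RPKM, which also divides by the gene length in the table.

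The libraries held 14024997 to 16764584 counts. Veh replicate 3 stood apart: on the first principal component, which carried 31.9% of the variance, it scored -23.2 and the other 5 libraries lay between -8.75 and 16.03. The second component carried 30.0% and separated the groups, with Hcy at 12.7 to 13.01 and Veh at -15.7 to -10.4. In Veh replicate 3, genes over 6000 bases had a median of -0.31 log2 against the rest of its group, and genes of up to 1000 bases a median of 0.37. The other 5 libraries lay between -0.19 and 0.16 in all length classes. Endothelial markers summed to 10670 to 11960 CPM in Veh and 12200 to 12780 CPM in Hcy, with Vwf at 2288 and 2934 CPM and Mcam at 1559 and 2080 CPM. Mcam (log2 fold change 0.42; edgeR, adjusted p = 0.0118) was the 1 call among 15 tested markers, whose median was 0.02, beside 1.32% of all genes called higher. The groups did not overlap for 3 of the 15 that were higher in Hcy and 5 that were lower, beside 10.8% and 9.27% of all genes. The 5 lower ones, with no call, were Eng (-0.27), Tek (-0.24) and the barrier transporter genes Slc2a1 (-0.32), Slco1a4 (-0.53) and Mfsd2a (-0.44). Cldn5, the main claudin of brain endothelium, was listed at 0 counts in all 6 libraries. The study blotted Claudin-5 protein in rBMECs and reported it lower with Hcy. The 0 counts are therefore not read as absence of the gene's product, and their source was not tested. Pecam1 and Abcb1a were not matched by symbol, and a row with a Swiss-Prot match to Pecam1 stood at 870 ± 67.5 CPM in Veh and 1102 ± 53.6 CPM in Hcy (SD, n = 3). Pericyte and smooth muscle markers summed to 1104 to 1330 CPM in Veh and 675 to 700.3 CPM in Hcy. In that list of 11 genes Tagln (log2 fold change -0.88) and Acta2 (-0.64) fell (edgeR, adjusted p = 0.0008 and 0.0248), whereas the pericyte markers Pdgfrb, Cspg4 and Rgs5 had at most 54, 16 and 9 counts in any library and positive estimates (0.73, 1.66 and 1.26) that did not pass. Kcnj8, another pericyte marker, had -0.99 from 4 to 13 counts and did not pass either. The lower sum in Hcy came from Tagln, at a mean of 1071 CPM in Veh and 582 CPM in Hcy, and Acta2, at 149 and 95.5 CPM. The median estimate over the list was 0.55, but apart from Tagln and Acta2 its genes had at most 54 counts in any library, and none of them passed. Lymphatic markers summed to 148 to 153 CPM in Veh and 148 to 163 CPM in Hcy, fibroblast markers to 63.5 to 91.2 and 44.6 to 68.7 CPM, and oligodendrocyte markers to 11.2 and 10.6 to 12.2 CPM. Lists for microglia, neurons, astrocytes and epithelium each summed to at most 3.09 CPM in any library, with Cx3cr1, Ptprc, Rbfox3, Snap25, Aqp4 and Slc1a2 at 0 counts throughout. The part of these differences in the results below was not tested. In bulk RNA, fewer cells of a type and less RNA per cell cannot be told apart.

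Per length, Pgf was by far the most abundant ligand. It had 880 RPKM in Veh and 720.3 RPKM in Hcy, which placed it above 99.4% of the genes tested in Veh. It accounted for 98.1% of the summed ligand RPKM in Veh (range 97.8 to 98.4%) and 97.9% in Hcy (97.82 to 97.98%). Flt1 followed at 64.0 RPKM in Veh, then Kdr at 61.6, Flt4 at 53.6 and Nrp1 at 29.4. Vegfc had 8.38 RPKM, Vegfb 6.53, Nrp2 6.00 and Vegfa 1.65, so Vegfa, the ligand that gives the family its name, was the least abundant of the 9 transcripts and lay above 28.7% of the genes tested. The ranges of Flt1, Kdr and Flt4 overlapped one another in Veh, but within each of the 3 Veh libraries Flt1 lay above Kdr and Kdr above Flt4. The ranges of Vegfb and Nrp2 also overlapped, and their order differed between Veh libraries. In Hcy the order of Kdr (79.8 RPKM) and Flt1 (76.4 RPKM) differed between libraries, with Flt4 below both in each, whereas Nrp2, at 10.2 RPKM (9.25 to 10.6), lay above Vegfc (6.50 to 8.53) and Vegfb (5.30 to 6.39) in every library.

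**Figure D1:**
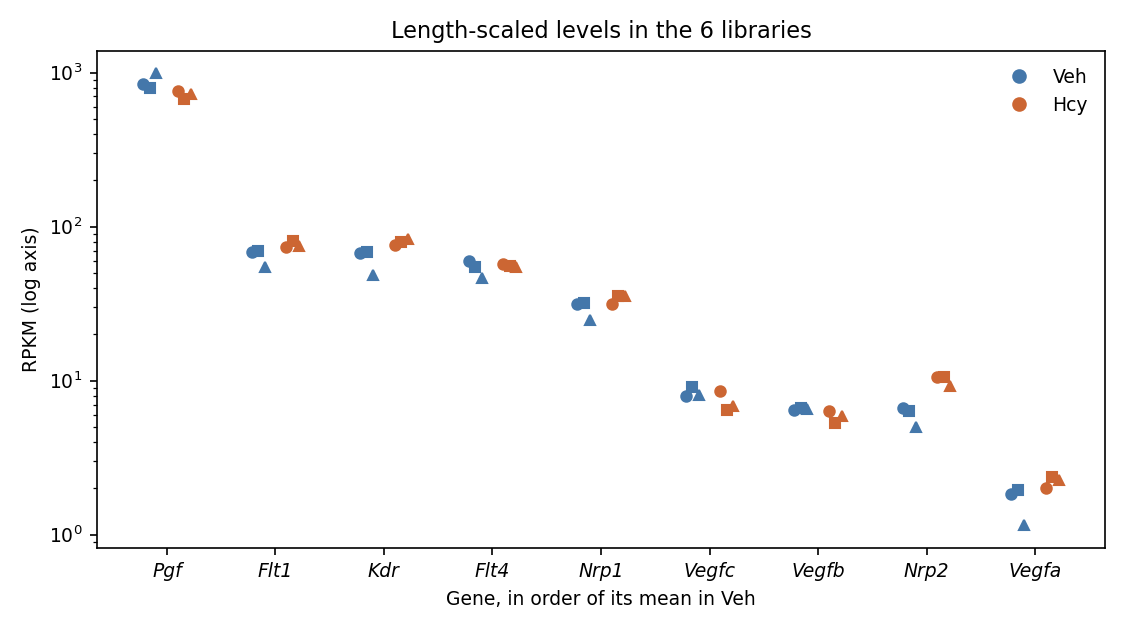
RPKM of the 9 genes in each library on a log axis, ordered by the mean in Veh; circles, squares and triangles are replicates 1, 2 and 3, blue is Veh and orange is Hcy. Pgf is the highest in every library, at a mean of 880 RPKM in Veh and 720.3 in Hcy, Vegfa is the lowest of the 9, and Nrp2 lies above Vegfc and Vegfb in the 3 Hcy libraries.

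Among the coreceptors, Nrp2 (chromosome 9, 69497121 to 69612087, plus strand) encodes neuropilin-2, which binds VEGF-C and VEGF-A and the semaphorins Sema3F and Sema3G. Its level was 42.2, 40.6 and 31.8 CPM in Veh replicates 1 to 3 and 67.4, 67.6 and 58.9 CPM in Hcy replicates 1 to 3. The lowest Hcy library lay above the highest Veh library. The means were 38.2 ± 5.62 and 64.7 ± 4.98 CPM (SD, n = 3), from 459 to 1007 counts per library. The log2 fold change was 0.76 (SE 0.12, 95% interval 0.50 to 1.02), with an adjusted p of 0.0128 in edgeR, and its rank by p was 115 among the 14603 genes. The estimate stayed between 0.64 and 0.84 whichever library was left out. The adjusted p was 0.0762 without Hcy replicate 1 and 0.0659 without Hcy replicate 2, so the call was lost in those edgeR fits, and over all alternatives it ran from 1.05e-06 to 0.0762. Veh replicate 3 was 0.38 log2 below the mean of the other Veh libraries, and without it the estimate was 0.64 with an adjusted p of 0.0014 in edgeR. The interval of the main estimate reached just past 1, the fold threshold used in the study.

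The 250 bases before the RefSeq start of Nrp2 are shown because this gene carried the call. They are chr9:71617004-71617253 in GRCr8, plus strand, written 5′ to 3′, and capitals mark matches on either strand to 5 short motifs. These were the GC box, spelled GGGCGG, and the CACCC box. The ETS core was spelled CCGGAA, the core of the hypoxia response element was spelled ACGTG, and the TATA box was spelled TATAAA.
Nrp2: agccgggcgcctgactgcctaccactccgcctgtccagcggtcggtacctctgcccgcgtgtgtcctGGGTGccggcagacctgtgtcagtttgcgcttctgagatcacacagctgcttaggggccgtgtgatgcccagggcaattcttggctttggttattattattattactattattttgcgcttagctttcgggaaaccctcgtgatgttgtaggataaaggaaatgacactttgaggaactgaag
The window had a GC content of 52.8%, close to the median of 52.0% over the promoters of 27457 rat genes. It held 1 match, to CACCC, which 49.4% of all promoters of this length hold. The listed start lies 652 bases inside the gene's own listed start. These letters are a description of the window, not sites.

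Nrp1 (chromosome 19, 61332351 to 61485858, plus strand) encodes neuropilin-1, the coreceptor that joins VEGF-A to VEGFR2. Its level was 175, 178 and 139 CPM in Veh and 175, 197 and 199 CPM in Hcy. The groups overlapped, since Hcy replicate 1 lay below 2 of the Veh libraries. The log2 fold change was 0.21 (SE 0.11, 95% interval -0.03 to 0.45), with an adjusted p of 0.449 in edgeR. Without Veh replicate 3 it was 0.11.

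Nrp1 transcripts outnumbered those of Nrp2 in every library. The RPKM ratio of Nrp1 to Nrp2 was 4.74, 4.99 and 4.98 in Veh and 2.95, 3.32 and 3.85 in Hcy. All 3 Hcy ratios lay below all 3 Veh ratios, a log2 difference of -0.55, with p = 0.1 in the exact two-sided permutation test over libraries, the smallest that 3 against 3 can give (adjusted p = 0.133 over the 4 ratios computed). Nrp2 made up 16.9% of the neuropilin RPKM in Veh (16.7 to 17.4%) and 23.0% in Hcy (20.6 to 25.3%).

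The receptor tyrosine kinases are long transcripts expressed at high levels. Kdr (chromosome 14, 34727623 to 34787183, plus strand) stood at 428, 432 and 310 CPM in Veh and 483, 502 and 530.3 CPM in Hcy. Every Hcy library exceeded every Veh library, and the widest gap was to Veh replicate 3. The means were 390 ± 69.5 and 505 ± 23.8 CPM (SD, n = 3), and the log2 fold change was 0.37 (SE 0.12, 95% interval 0.10 to 0.65; edgeR, adjusted p = 0.195). Veh replicate 3 was 0.47 log2 below the mean of the other Veh libraries. Without it the estimate was 0.23 and the adjusted p 0.0325 in edgeR, a smaller change that passed the test.

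Flt1 (chromosome 12, 9034308 to 9205905, plus strand) stood at 474, 482 and 382 CPM in Veh and 514, 560 and 523 CPM in Hcy. The groups did not overlap. The means were 446 ± 55.6 and 532 ± 24.2 CPM (SD, n = 3), with a log2 fold change of 0.26 (SE 0.10, 95% interval 0.04 to 0.47; edgeR, adjusted p = 0.267). Without Veh replicate 3, which lay 0.32 log2 below the others, it was 0.16. The table counts reads per gene, so soluble and membrane forms of VEGFR1 are not separated.

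Flt4 (chromosome 10, 35078726 to 35121599, plus strand), the receptor of VEGF-C and a gene that lymphatic endothelium expresses strongly, stood at 342, 314 and 264 CPM in Veh and 326, 319 and 314 CPM in Hcy. The groups overlapped, and the log2 fold change was 0.06 (SE 0.09, 95% interval -0.15 to 0.28; edgeR, adjusted p = 0.856). It was -0.04 without Veh replicate 3. Beside it, the lymphatic regulator Prox1 had at most 3 counts in any library, and the lymphatic marker Lyve1 stood at 145 ± 1.62 CPM in Veh and 148 ± 6.66 CPM in Hcy (SD, n = 3).

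As shares of the RPKM of the 3 kinases, Flt1 had 35.8% in Veh and 36.0% in Hcy. Kdr had 34.2% in Veh (32.6 to 35.4%) and 37.6% in Hcy (36.8 to 39.2%), and Flt4 30.0% (28.6 to 30.8%) and 26.4% (25.7 to 27.6%). The Kdr and Flt4 shares did not overlap between the groups, in opposite directions. The 3 shares are parts of the same sum, so they do not move independently, and they were not tested. The Flt4 level itself overlapped between the groups, with a log2 fold change of 0.06. The ratio of Flt1 to Kdr was 1.01, 1.02 and 1.12 in Veh and 0.968, 1.01 and 0.897 in Hcy, a log2 difference of -0.13 (exact two-sided permutation test, p = 0.2, adjusted p = 0.2). These groups overlapped, and the difference was -0.08 without Veh replicate 3.

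The windows before the starts of Kdr and Flt1 are shown with the same marks, because both genes moved the same way by estimate as Nrp2. The Kdr window is chr14:32571813-32572062 and the Flt1 window chr12:12333180-12333429, both in GRCr8 on the plus strand.
Kdr: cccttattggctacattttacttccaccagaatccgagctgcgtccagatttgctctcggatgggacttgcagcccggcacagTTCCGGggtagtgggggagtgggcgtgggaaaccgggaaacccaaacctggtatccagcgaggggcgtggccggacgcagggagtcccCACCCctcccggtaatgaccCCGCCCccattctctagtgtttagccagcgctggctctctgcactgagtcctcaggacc
Flt1: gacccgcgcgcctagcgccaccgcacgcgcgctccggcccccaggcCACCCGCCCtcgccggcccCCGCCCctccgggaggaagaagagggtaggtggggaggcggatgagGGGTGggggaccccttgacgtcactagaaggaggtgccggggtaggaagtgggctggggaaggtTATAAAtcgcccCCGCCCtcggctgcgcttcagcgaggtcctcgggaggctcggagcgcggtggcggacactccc
The Kdr window, 61.6% GC, held a GC box, a CACCC and an ETS core. The Flt1 window, 73.2% GC, held GC boxes, CACCC matches, 1 of them overlapping a GC box, and a TATAAA. The listed starts lie 380 bases (Flt1) and 32 bases (Kdr) inside the genes' own listed starts. Of all promoters, 32.4% hold GGGCGG, 13.4% CCGGAA and 13.1% TATAAA.

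Among the ligands, Pgf (chromosome 6, 108994018 to 109004598, minus strand) stood at 1325, 1250 and 1544 CPM in Veh and 1185, 1055 and 1133 CPM in Hcy. All 3 Hcy libraries lay below all 3 Veh libraries. The means were 1373 ± 153 and 1124 ± 65.7 CPM (SD, n = 3), with a log2 fold change of -0.29 (SE 0.09, 95% interval -0.49 to -0.09; edgeR, adjusted p = 0.173). Here Veh replicate 3 was the highest library, 0.26 log2 above the mean of the other Veh libraries, and without it the estimate was -0.20. Pgf has 1561 bases in the table, and Kdr, Flt1 and Nrp2 have over 6000.

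The Pgf window is shown as that of the dominant ligand, which had the opposite sign to the receptors by estimate. It is chr6:110557748-110557997 in GRCr8, minus strand.
Pgf: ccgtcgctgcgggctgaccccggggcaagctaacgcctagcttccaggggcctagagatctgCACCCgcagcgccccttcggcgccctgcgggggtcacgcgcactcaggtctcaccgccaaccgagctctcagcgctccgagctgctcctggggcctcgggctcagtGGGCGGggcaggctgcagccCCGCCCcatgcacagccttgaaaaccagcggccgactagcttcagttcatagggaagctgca
It had 69.2% GC, with a CACCC and GC boxes. ACGTG, which 16.9% of all promoters hold, was in no window of the 9 genes.

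Vegfa (chromosome 9, 17340341 to 17355681, plus strand) stood at 6.53, 6.95 and 4.08 CPM in Veh and 7.18, 8.40 and 8.06 CPM in Hcy, from 59 to 135 counts per library. The groups did not overlap, with a narrow gap between Veh replicate 2 and Hcy replicate 1. The log2 fold change was 0.43 with a wide interval of -0.05 to 0.90 (SE 0.21; edgeR, adjusted p = 0.442). Without Veh replicate 3, which lay 0.72 log2 below the others, the estimate was 0.23.

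Vegfb (chromosome 1, 222239022 to 222242644, minus strand), a VEGFR1 ligand, stood at 11.5, 11.9 and 11.7 CPM in Veh and 11.4, 9.47 and 10.5 CPM in Hcy. The groups did not overlap, but Hcy replicate 1 lay just under Veh replicate 1. The log2 fold change was -0.16 (SE 0.12; edgeR, adjusted p = 0.661), and -0.09 without Hcy replicate 2. Vegfc (chromosome 16, 40440207 to 40555576, minus strand), the ligand of VEGFR3, stood at 16.9, 19.4 and 17.2 CPM in Veh and 18.2, 13.8 and 14.6 CPM in Hcy. The groups overlapped, with a log2 fold change of -0.20 (SE 0.13; edgeR, adjusted p = 0.588). It was -0.33 without Hcy replicate 1 and -0.13 without Hcy replicate 2.

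Between ligands, the RPKM ratio of Vegfa to Vegfb was 0.287, 0.295 and 0.176 in Veh and 0.317, 0.447 and 0.386 in Hcy, a log2 difference of 0.63. The ratio of Pgf to Vegfa was 461, 409 and 859 in Veh and 375, 285 and 320 in Hcy, a log2 difference of -0.75. In both ratios the groups did not overlap, and each gave p = 0.1 in the exact two-sided permutation test, the smallest possible here (adjusted p = 0.133). Veh replicate 3 was the extreme library in both, and without it the log2 differences were 0.38 for Vegfa to Vegfb and -0.42 for Pgf to Vegfa.

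**Figure D2:**
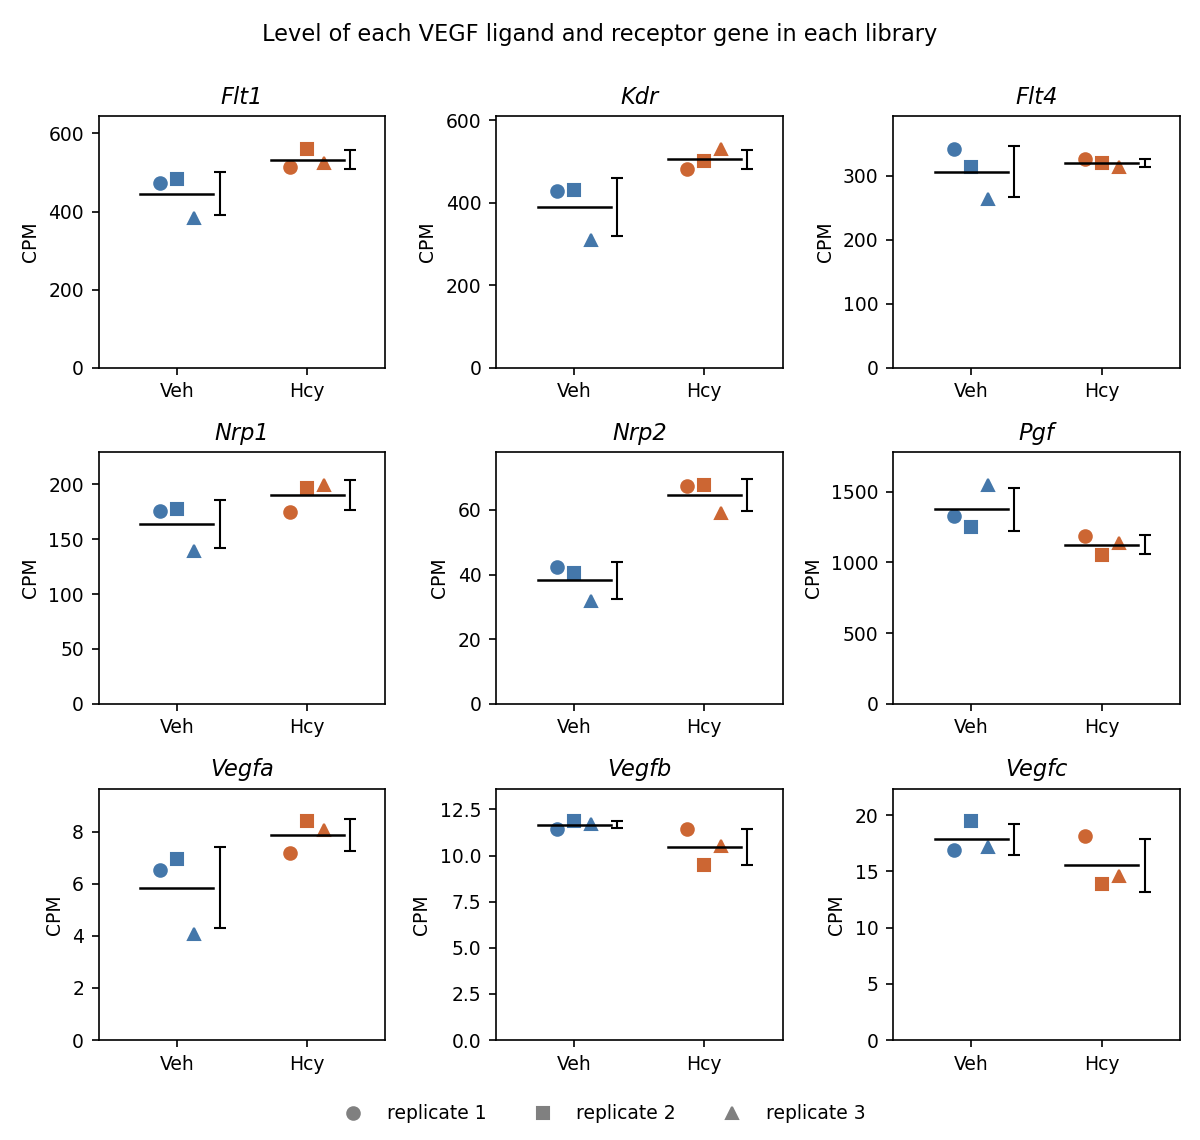
CPM of each gene in each library, on linear axes from 0; circles, squares and triangles are replicates 1, 2 and 3, the horizontal line is the group mean and the bar beside it the SD (n = 3). Veh replicate 3 is the lowest library in the panels of all 5 receptors and of Vegfa and the highest for Pgf, and Nrp2 shows the widest separation relative to its spread.

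Counted over the 9 genes, 1 passed the adjusted p and was higher in Hcy, beside 193 of 14603 genes tested (1.32%), and 0 passed and were lower, beside 148 (1.01%). None of the 9 passed both the adjusted p and an absolute log2 fold change of 1, as 71 genes did (0.486%), and 4 had an unadjusted p of at most 0.05 in edgeR (Nrp2, Pgf, Kdr and Flt1), beside 13.4% of all genes. The groups did not overlap, with Hcy higher, for Nrp2, Kdr, Flt1 and Vegfa, beside 10.8% of all genes. They did not overlap, with Hcy lower, for Pgf and Vegfb, beside 9.27% of all genes. The median log2 fold change was 0.21 over the 9 genes and -0.02 over all genes tested. Without Veh replicate 3 the median of the 9 estimates was 0.11, that of Nrp1.

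**Figure D3:**
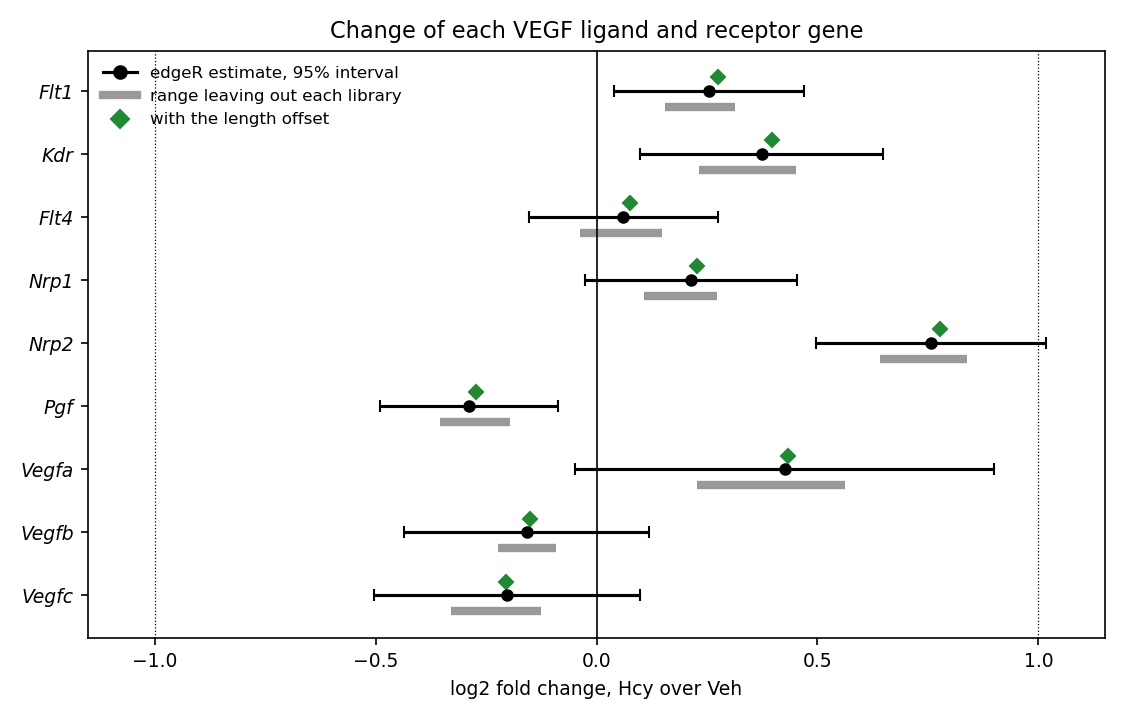
log2 fold change of Hcy over Veh for each gene: black points are edgeR estimates with 95% intervals, grey bars the range of estimates with each library left out in turn, green diamonds the estimate with an offset for gene length, and dotted lines mark a log2 fold change of 1 in either direction. The interval of Nrp2 lies farthest from 0, those of Flt1, Kdr and Pgf also lie on one side of 0, and the grey bar of Flt4 crosses 0.

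Because Veh replicate 3 deviated with gene length and the members range from 1561 to 6968 bases, the members' own deviations were set beside those of all genes. In that library Flt4 and Nrp1 lay 0.32 and 0.35 log2 below the mean of the other Veh libraries, with Vegfb at 0.01 and Vegfc at -0.08. The 5 receptors, of 5586 to 6968 bases, were low by 0.32 to 0.47, whereas the median gene of 4001 to 6000 bases stood at -0.17 and that over 6000 bases at -0.31. Vegfa, with 3546 bases, lay at -0.72, against -0.08 for genes of 3001 to 4000 bases. With a length offset fitted for each library, an alternative chosen after the data were seen, 4 of the 9 genes passed the adjusted p in edgeR: Nrp2 (log2 fold change 0.78, adjusted p = 0.000836), Flt1 (0.27, 0.00983), Kdr (0.40, 0.0106) and Pgf (-0.27, 0.0281). All genes passing then numbered 647 (4.43%). Without Veh replicate 3 altogether, Nrp2 and Kdr passed, beside 957 of 14352 genes tested (6.67%). The estimates moved little with the offset.

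**Figure D4:**
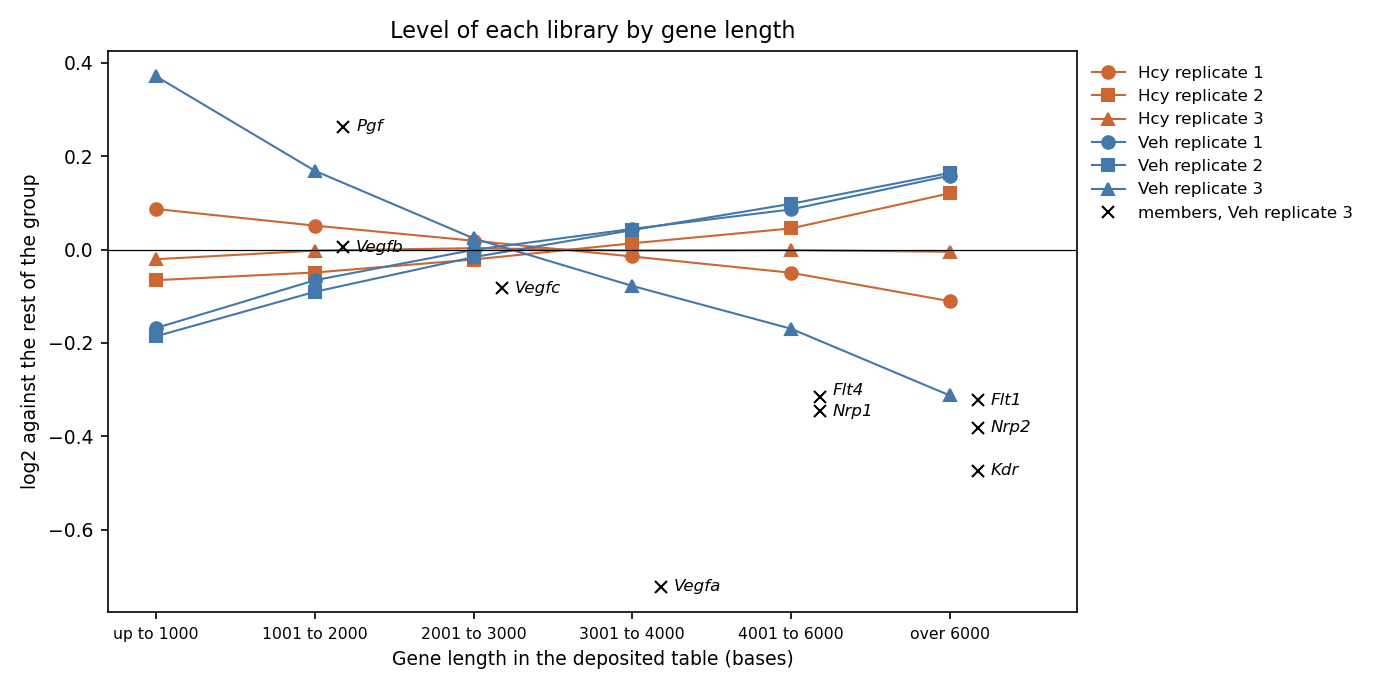
Median log2 level of each library against the rest of its group, for genes of at least 5 CPM in 6 classes of gene length; crosses give each of the 9 genes in Veh replicate 3 against the mean of Veh replicates 1 and 2. The line of Veh replicate 3 falls from 0.37 to -0.31 with length, and the crosses of the 5 receptors lie at or below it.

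The genes whose log2 CPM followed that of Nrp2 most closely over the 6 libraries, among 9583 genes of at least 5 CPM, were Pstpip1 (Pearson r = 0.997), Ywhag (0.997) and Nid2 (0.996). These correlations are a description over 6 libraries, in which both the difference between the groups and the deviation of Veh replicate 3 enter. Nid2, a basement membrane nidogen, rose (log2 fold change 0.55; edgeR, adjusted p = 0.0145), while Pstpip1 had 0.53 (adjusted p = 0.146) and Ywhag 0.11 (adjusted p = 0.485). Nid2 lost its call without Hcy replicate 1, 2 or 3 (edgeR, adjusted p = 0.0832, 0.0783 and 0.0799).

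Neuropilins also serve semaphorins, whose signal passes through plexins. Of 12 semaphorin and plexin genes, 1 rose and 1 fell, beside 1.32% and 1.01% of all genes tested, and the median log2 fold change was -0.06, which ran from -0.24 without Veh replicate 3 to 0.10 without Hcy replicate 1. Sema3c, a secreted ligand of both neuropilins, stood at 45.6, 47.9 and 45.1 CPM in Veh and 25.6, 25.1 and 22.7 CPM in Hcy. All Hcy libraries were close together and well below Veh, with a log2 fold change of -0.92 (SE 0.08; edgeR, adjusted p = 0.00113), and the call held with any library left out. Plxnd1, the endothelial plexin, rose from 385 ± 68.7 to 628 ± 8.57 CPM (SD, n = 3). Its log2 difference was 0.71 (SE 0.12; edgeR, adjusted p = 0.0177), and it lost its call in 4 of the 6 fits with 1 library left out. Without Veh replicate 3, 7 of the 12 passed, beside 6.67% of all genes in that fit.

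Among 30 tested genes of a list of VEGF-responsive and tip cell genes, those of the leading cell of a sprout, 5 rose, 0 fell and 25 did not pass, beside 1.32% of all genes that rose, and the median was 0.25. Kcne3, a potassium channel subunit, rose by 0.72 on the log2 scale (SE 0.09; edgeR, adjusted p = 0.00781). Cxcr4, the chemokine receptor of tip cells, rose by 0.64 (adjusted p = 0.012), Igfbp3, a binding protein of insulin-like growth factors, by 0.90 (0.015), Lama4, an endothelial laminin, by 0.54 (0.0161), and Nid2 as above, in the same edgeR fit. Esm1 (endocan), which VEGF induces in tip cells, had the highest RPKM of the list averaged over both groups and a log2 fold change of -0.18 (adjusted p = 0.199). Apln, the ligand apelin, was above it in Hcy (1633 against 1467 RPKM) and below it in Veh (1453 against 1661 RPKM), with 0.17 (adjusted p = 0.191), and the Notch ligand Dll4 had 0.50 (adjusted p = 0.0597). In 17 of the 30 genes Hcy lay above Veh with no overlap, and in 2 below it, beside 10.8% and 9.27% of all genes tested. With 1 library left out, Cxcr4, Igfbp3 and Lama4 each lost the call in 4 of the 6 fits, Nid2 in 3 and Kcne3 in 1. The count that passed was 0 without Hcy replicate 3, where 81 of all genes passed, and 1 without Hcy replicate 1 or 2. It was 6 without Veh replicate 1, 2 without Veh replicate 2 and 9 without Veh replicate 3, where 957 of all genes (6.67%) passed. The smooth muscle genes Tagln and Acta2 fell in the same libraries, and their part was not tested.

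Of 48 tested relays inside the cell, from phospholipase C gamma to the kinases and small GTPases, 0 passed in either direction and the median was 0.01. At 1.32% and 1.01% of all genes, a list of this size would hold few calls, so a count of 0 is near the background. Cdc42, the most abundant of them, had a log2 fold change of 0.01 (edgeR, adjusted p = 0.982), Plcg1, which binds activated VEGFR2, had 0.23 (adjusted p = 0.264), and Nos3, the endothelial nitric oxide synthase, had -0.11 (adjusted p = 0.532). Of 38 partners and brakes of the receptors, 0 passed, near the same background, and the median was -0.04 (-0.10 to 0.03 with 1 library left out). Itgb1, an integrin subunit and the most abundant, had 0.17 (adjusted p = 0.237), Efnb2, an ephrin needed for VEGF receptor uptake, 0.39 (adjusted p = 0.0711), and the junction protein Cdh5 0.13 (adjusted p = 0.65). The relay list had 2 calls or fewer in each alternative, and the partner list 3 or fewer.

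Upstream of the ligands, 1 of 21 tested regulators fell and 0 rose, near the 1.01% and 1.32% of all genes at this list size, with a median of -0.06. Egln3, an oxygen-sensing prolyl hydroxylase and itself a target of HIF, stood at 14.5 ± 0.853 CPM in Veh and 8.61 ± 0.962 CPM in Hcy (SD, n = 3). It fell by 0.75 on the log2 scale (SE 0.13; edgeR, adjusted p = 0.0212), a call lost in 5 of the 6 fits with 1 library left out. Epas1 (HIF-2 alpha), the most abundant regulator, had -0.02 (adjusted p = 0.946), and Hif1a had -0.11 (adjusted p = 0.583). Of 22 tested transcription factors of the receptor genes, 1 rose and 2 fell, beside 1.32% and 1.01% of all genes, with a median of -0.02. Klf4 and Klf2, factors that laminar flow induces in endothelium, fell by 0.95 and 0.52 (edgeR, adjusted p = 0.00415 and 0.0129). Lmo2, a cofactor of endothelial transcription complexes, rose by 0.52 (adjusted p = 0.0183), and Erg, the most abundant, had -0.05 (adjusted p = 0.862). The Klf4 call held with any library left out, whereas Klf2 lost it in 4 and Lmo2 in 5 of the 6 fits.

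**Figure D5:**
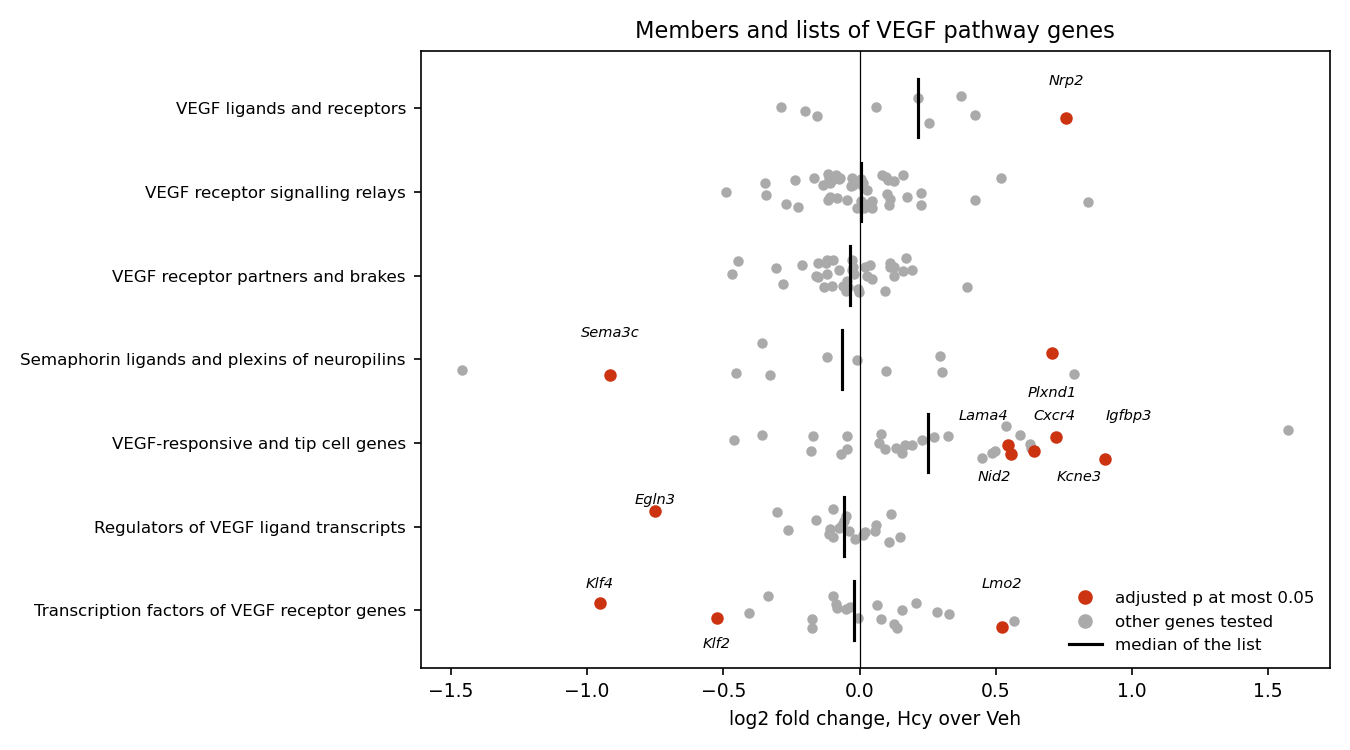
log2 fold change of Hcy over Veh for each tested gene of the VEGF ligands and receptors and of 6 lists of pathway genes; red points passed an adjusted p of 0.05 and are named, grey points did not, black lines are medians, and the vertical spread within a list carries no value. The median of the tip cell list lies at 0.25 and that of the ligands and receptors at 0.21, while the other medians lie between -0.06 and 0.01.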

How the data were processed

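RNA from 3 Hcy and 3 Veh cultures was sequenced as poly(A) libraries. The deposited table holds raw counts per gene, made by the authors. The submitters' processing notes name fastp, HISAT2 2.2.1, StringTie 2.2.3, Cufflinks, featureCounts 2.0.6 and DESeq2 1.42.0, and the build mRatBN7.2. Listed gene ends reach 282724300 on chromosome 1, which is longer than that chromosome in mRatBN7.2, so gene positions belong to a build that the table does not name. Whether counting used strand is not stated. Vegfc and Nrp1 each overlap a miRNA gene with 0 counts.

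Genes with at least 10 counts over the 6 libraries were tested with edgeR 4.0.16 in R 4.3.3 (TMM factors 0.977 to 1.015, quasi-likelihood test, group as the only term), with Benjamini-Hochberg adjustment over all 14603 genes. The study's thresholds, an adjusted p of 0.05 and an absolute log2 fold change of 1, were kept. At these thresholds the study reported more genes, with DESeq2, than the 71 found here with edgeR or the 100 found here with DESeq2. The source of that gap was not tested. RPKM used the table's gene length. A count of 3 corresponds to 0.178 to 0.215 CPM, and such floors cover counting error only. Ratios were tested by exact permutation over libraries.

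On simulated data for this comparison, 65 of 100 genes changed by 1 and 98 of 100 changed by 2 on the log2 scale were recovered by the main edgeR fit, with 9 wrong calls among 14373 genes. DESeq2 made 22 wrong calls and the replicate block 23. The simulation drew genes independently, without the length-dependent deviation of Veh replicate 3, so it does not measure errors from that deviation. Smaller changes, such as those of the 9 genes, were not simulated. Alternatives were DESeq2 1.42.0, its size factors in edgeR, library totals alone, no count filter, edgeR's own filter, a replicate block, each library left out, ratios of raw counts plus 1, and, chosen after the data were seen, an offset from a lowess curve of each library's deviation on gene length.

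Named genes were all 9 members; from each pathway list, those past the adjusted p and the most abundant; the 3 genes most like Nrp2; and marker genes at the top or at 0. Apln, Dll4, Efnb2, Plcg1, Nos3, Cdh5, Hif1a, Vwf, the 5 endothelial markers lower in Hcy and the pericyte markers were named after their values were seen. Members and lists were chosen with earlier results of these data known. Promoter sequences came from RefSeq (GRCr8) and matched 9 of 9 members by symbol.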

Additional observations from a re-analysis of the deposited data

How the results depend on the processing

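None of the 9 genes passed both thresholds in any of the 14 alternatives. With the length offset, Pgf (-0.27), Flt1 (0.27) and Kdr (0.40) passed the adjusted p, which made 4 members with Nrp2. With each library left out, the members past the adjusted p numbered 0 to 2 (0 without Hcy replicate 1 or 2, and 2 without Veh replicate 3), and the estimates ran from 0.64 to 0.84 for Nrp2, 0.23 to 0.45 for Kdr and -0.037 to 0.15 for Flt4. Relays past the adjusted p numbered 1 with the length offset and 0 to 2 over the leave-outs. Partners numbered 1 with DESeq2, 1 with no count filter, 2 with the length offset and 0 to 3. Semaphorins and plexins numbered 4 with DESeq2 and 1 to 7, tip cell genes 9 with DESeq2, 8 with the length offset and 0 to 9, ligand regulators 2 with DESeq2 and 0 to 3, and receptor transcription factors 5 with DESeq2, 5 with the length offset and 1 to 5. Of the leave-outs, the one without Veh replicate 3 gave the highest count in each of these 6 lists. The leave-out medians ran from -0.24 to 0.097 for the semaphorins and plexins, -0.10 to 0.029 for the partners, -0.089 to 0.0019 for the regulators and -0.099 to 0.064 for the transcription factors, each crossing 0. The cause was not tested. Over all genes, 341 passed the adjusted p, 604 with DESeq2 and 80 to 957 with 1 library left out. With no count filter 109 passed both thresholds, against 71. No ratio changed its side of the threshold, which 3 against 3 cannot cross.

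Same-numbered libraries correlated at -0.009, 0.11 and 0.048 in their deviations from the group means, and different-numbered libraries at -0.14 to 0.094. With so few libraries per group these values cannot settle whether the numbers pair them. The main fit took them as unpaired. With the replicate block Nrp2 stood at 0.77 (edgeR, adjusted p = 0.00603) and 1 member and 298 genes passed the adjusted p. Depth was lowest for Vegfa among the members, at 59 to 135 counts.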
